A study of Mus musculus with 12 samples.

Results

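Of the 10 long noncoding RNAs described here, Malat1, Neat1, Kcnq1ot1, Tug1, Lncpint, Fendrr and Miat act mainly in the nucleus. Pvt1, Dleu2 and Mir17hg were grouped as microRNA hosts. In the annotation used, microRNA hairpins lay inside Dleu2 and Mir17hg but not inside Pvt1. All 10 RNAs were found by mouse symbol in a count table of 55487 Ensembl identifiers and passed the filter on low counts. The choice was made with measured values known, namely that several of the RNAs were higher, and Miat lower, with combination treatment. Levels in comparisons that hold the vehicle or combination libraries are therefore described without a test. The comparison of regorafenib with anti-PD1 uses neither set of libraries and is the only group comparison whose test is reported for single RNAs of the 10. In the others, fold changes and the number past the threshold of the fit are given as a description of the choice.

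RNA came from tumours of Sq-1979, a mouse head and neck squamous carcinoma line, grown subcutaneously in Matrigel in C3H/HeN males that were 6 weeks old at injection. Treatment began on day 20 and fell into 4 groups of 3 libraries: regorafenib together with anti-PD1 (the combination), regorafenib alone at 5 mg/kg/day, anti-PD1 alone, and vehicle. Regorafenib inhibits several receptor tyrosine kinases, and anti-PD1 blocks a checkpoint receptor of T cells. The labels do not say whether the 3 libraries of a group came from separate mice, so p-values measure the spread between libraries. The tumours are a single cell line in a host that supplies stroma, vessels and leukocytes, and in such bulk RNA fewer cells of a type and less RNA per cell cannot be told apart. Library totals ran from 22591835 to 28209036 counts. All 12 squamous carcinoma genes on a marker list (keratins, Trp63 and Epcam among them) were tested, and their summed level was 13420 to 15970 CPM in combination, 13380 to 16630 in regorafenib, 14130 to 17150 in anti-PD1 and 16260 to 19610 in vehicle libraries. CPM is the usual count scaled to library size, here after TMM normalisation.

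Malat1 is retained in nuclear speckles, bodies rich in splicing factors, and Neat1 is the scaffold around which paraspeckles assemble. Kcnq1ot1 is transcribed from the paternal chromosome and silences imprinted genes around Kcnq1. Mir17hg and Dleu2 are precursors from which Drosha and Dicer cut the miR-17-92 cluster and the miR-15a/16-1 pair, the first a growth-promoting cluster switched on by Myc and E2F factors and the second known for restraining the cell cycle. The libraries were made from polyadenylated RNA, which captures precursors but not mature microRNAs. The long form of Neat1 and mature Malat1 end without a standard poly(A) tail, so their capture by such a protocol is partial.

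The microRNAs encoded in the 2 host genes are shown first, because they are what sets these hosts apart from the other RNAs. The 8 hairpins lay on mouse chromosome 14, 6 of them within exons of Mir17hg (chr14:115042879-115046727, plus strand) and 2 within Dleu2 (chr14:61602839-61682373, minus strand; GRCm38). RefSeq (GRCm38.p6) listed 15 mature sequences for them with 12 distinct seeds. The guide strands are given below 5′ to 3′ with the seed, bases 2 to 8, in capitals.
miR-17-5p: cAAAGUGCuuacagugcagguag
miR-20a-5p: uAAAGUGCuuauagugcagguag
miR-18a-5p: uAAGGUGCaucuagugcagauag
miR-19a-3p: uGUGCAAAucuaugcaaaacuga
miR-19b-3p: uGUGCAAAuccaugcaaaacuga
miR-92a-3p: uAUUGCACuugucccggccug
miR-15a-5p: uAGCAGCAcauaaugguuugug
miR-16-5p: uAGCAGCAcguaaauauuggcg
In 3 pairs the seed is shared: miR-17-5p with miR-20a-5p, miR-19a-3p with miR-19b-3p, and miR-15a-5p with miR-16-5p. The seed of miR-18a-5p is close to that of miR-17-5p but not the same, and miR-92a-3p has a seed of its own in the set. The hairpins have rows of their own in the count table: 7 of the 8 held 0 counts in all 12 libraries, and Mir15a held 2 counts in 1 library. What follows is the level of the host transcripts, and nothing about the mature microRNAs was measured.

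Per kilobase of exon, Neat1 was the most abundant of the 10 RNAs, at 22.6 CPM per kb in vehicle tumours. Malat1 stood at 18.2 and Tug1 at 12.6 CPM per kb on the same scale. A middle tier held Mir17hg at 2.02, Pvt1 at 1.36 and Dleu2 at 1.31 CPM per kb. Miat stood at 0.312 CPM per kb, Fendrr at 0.0917, Lncpint at 0.0784 and Kcnq1ot1 at 0.0639, the last over an annotated exon of 93092 bases. The first 6 places went to the same RNAs in the same order in every treatment group, while the last 4 changed places. In counts, 7 of the 10 RNAs had more than 100 counts in every library. The exceptions were Lncpint with 5 to 67 counts, Miat with 5 to 143 and Fendrr with 3 to 33 per library, so counting error weighs on these values.

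**Figure D1:**
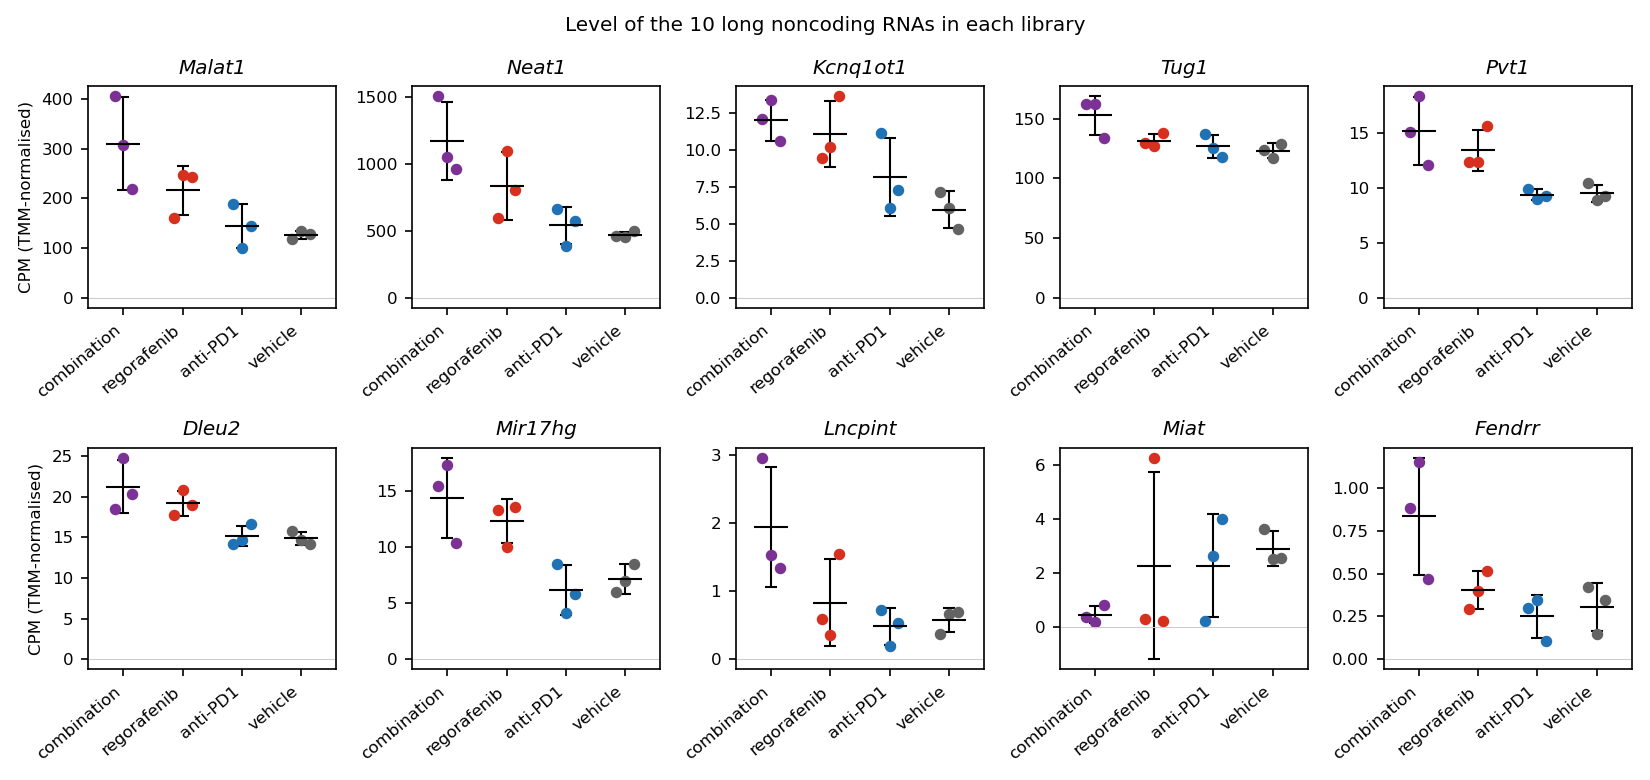
TMM-normalised CPM (linear vertical axis) of each RNA in the 12 libraries, 3 per group; dots are libraries, the horizontal bar is the group mean and the whiskers are 1 SD. Mir17hg, Pvt1 and Dleu2 are higher in all regorafenib and combination libraries than in all anti-PD1 and vehicle libraries, and Miat has a single high regorafenib library at 6.29 CPM.

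The speckle RNA Malat1 (chr19:5795690-5802672, minus strand) was 2.44-fold higher in combination than in vehicle tumours. Its levels were 405, 306 and 218 CPM in the combination, 160, 248 and 242 CPM with regorafenib, 189, 99.4 and 145 CPM with anti-PD1, and 118, 134 and 129 CPM with vehicle. Every combination and every regorafenib library lay above every vehicle library, whereas the anti-PD1 libraries spread to both sides of vehicle. The fitted log2 fold change against vehicle was 1.29 ± 0.27 (SE) for the combination, 0.77 ± 0.27 for regorafenib and 0.19 ± 0.27 for anti-PD1.

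Neat1 (chr19:5824708-5845478, minus strand) lies upstream of Malat1 on the same strand, with 22035 bases between the 3′ end of Neat1 and the 5′ end of Malat1. Its levels were 1504, 1051 and 959 CPM in the combination, 595, 1098 and 801 CPM with regorafenib, 661, 389 and 573 CPM with anti-PD1, and 461, 452 and 496 CPM with vehicle. The arrangement was that of Malat1: combination and regorafenib libraries lay above all vehicle libraries, and anti-PD1 libraries overlapped vehicle. Neat1 differed from vehicle by 1.32 ± 0.26 on the log2 scale in the combination, 0.82 ± 0.26 with regorafenib and 0.20 ± 0.25 with anti-PD1. For both RNAs, ordering the groups by mean put vehicle lowest, then anti-PD1, regorafenib and the combination, with the ranges of all neighbours in that order overlapping. In the combination the highest library exceeded the lowest 1.86-fold for Malat1 and 1.57-fold for Neat1, against 1.14-fold for Malat1 and 1.10-fold for Neat1 with vehicle.

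Kcnq1ot1 (chr7:143203458-143296549, minus strand) had 12.1, 13.3 and 10.6 CPM in the combination, 9.43, 10.2 and 13.6 CPM with regorafenib, 11.2, 6.07 and 7.26 CPM with anti-PD1, and 7.13, 6.09 and 4.63 CPM with vehicle. Combination and regorafenib libraries again lay above all vehicle libraries, and a single anti-PD1 library reached their range. The log2 fold change against vehicle was 1.01 ± 0.25 for the combination, 0.90 ± 0.25 for regorafenib and 0.46 ± 0.25 for anti-PD1. Kcnq1ot1 shares 121 exonic bases with Kcnq1 on the opposite strand, and the strand setting of the counting is not given in the sources used here.

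Tug1 (chr11:3639785-3649673, minus strand), an RNA linked to polycomb-dependent silencing, varied least. It had 162, 162 and 134 CPM in the combination, 129, 127 and 138 CPM with regorafenib, 137, 126 and 118 CPM with anti-PD1, and 124, 117 and 129 CPM with vehicle. The combination libraries lay above all vehicle libraries, while both single treatments overlapped vehicle. The log2 fold change against vehicle was 0.31 ± 0.09 for the combination, 0.10 ± 0.09 for regorafenib and 0.05 ± 0.09 for anti-PD1. Tug1 shares 483 exonic bases with Morc2a on the opposite strand, so reads there could be assigned to either if strand was not used.

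Among the host genes, Mir17hg was 2.01-fold higher in combination than in vehicle tumours. It had 15.5, 17.3 and 10.4 CPM in the combination, 13.3, 10.03 and 13.6 CPM with regorafenib, 8.53, 4.15 and 5.82 CPM with anti-PD1, and 5.96, 6.97 and 8.52 CPM with vehicle. The lowest of the 6 libraries with regorafenib, at 10.03 CPM, lay above the highest of the 6 without it, at 8.53 CPM. The log2 fold change against vehicle was 1.01 ± 0.28 for the combination, 0.78 ± 0.28 for regorafenib and -0.22 ± 0.28 for anti-PD1.

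Dleu2 was separated in the same way with a smaller difference. It had 18.5, 24.8 and 20.3 CPM in the combination, 17.7, 20.8 and 18.9 CPM with regorafenib, 14.2, 14.7 and 16.6 CPM with anti-PD1, and 15.7, 14.7 and 14.1 CPM with vehicle. All 6 libraries with regorafenib lay above all 6 without it, and anti-PD1 and vehicle overlapped. Dleu2 differed from vehicle by 0.52 ± 0.12 on the log2 scale in the combination, 0.37 ± 0.12 with regorafenib and 0.03 ± 0.12 with anti-PD1.

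Pvt1 (chr15:62037986-62378096, plus strand) is transcribed downstream of Myc. It was grouped with the microRNA hosts, although no microRNA hairpin was annotated inside it. It had 15.1, 18.3 and 12.1 CPM in the combination, 12.4, 12.3 and 15.6 CPM with regorafenib, 9.93, 8.98 and 9.27 CPM with anti-PD1, and 10.4, 8.93 and 9.22 CPM with vehicle. The libraries with regorafenib and those without did not overlap. Its log2 fold change against vehicle was 0.67 ± 0.16 for the combination, 0.50 ± 0.16 for regorafenib and -0.02 ± 0.16 for anti-PD1. Genes with all 6 regorafenib-treated libraries above the other 6 made up 2.87% of the 16974 genes tested, and 3 of the 10 RNAs were among them. Combination and vehicle values were known when the RNAs were chosen, so nothing is read from that count. Neutrophil genes moved with this split in part. The 9 tested of 10 neutrophil genes averaged 1.11 to 1.62 above the vehicle mean on the log2 scale in the combination, 0.27 to 1.68 with regorafenib, -0.70 to 0.60 with anti-PD1 and -0.29 to 0.25 with vehicle. Their summed level was 95.6 to 301 CPM in the combination, 100 to 110 with regorafenib, 69.8 to 111 with anti-PD1 and 74.9 to 92 with vehicle, Ly6g being under the filter with a mean below 0.1 CPM. The part of neutrophils in the values of the host genes was not tested.

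Lncpint and Fendrr were near the limit of what the libraries could resolve. Lncpint (chr6:31082565-31220488, minus strand), an RNA induced by p53 in mouse cells, had 2.96, 1.53 and 1.34 CPM in the combination, 0.592, 0.352 and 1.55 CPM with regorafenib, 0.721, 0.192 and 0.539 CPM with anti-PD1, and 0.378, 0.664 and 0.694 CPM with vehicle. Fendrr (chr8:121054882-121083110, minus strand), needed for heart and body wall development in the mouse embryo, had 0.884, 1.15 and 0.471 CPM in the combination, 0.296, 0.396 and 0.517 CPM with regorafenib, 0.297, 0.346 and 0.108 CPM with anti-PD1, and 0.419, 0.148 and 0.347 CPM with vehicle. Both were higher in every combination library than in any vehicle or anti-PD1 library, while the regorafenib libraries overlapped all other groups. Against vehicle, the log2 fold change in the combination was 1.73 ± 0.58 for Lncpint and 1.45 ± 0.50 for Fendrr. With regorafenib alone it was 0.53 ± 0.60 for Lncpint and 0.42 ± 0.52 for Fendrr.

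Miat (chr5:112213228-112229395, minus strand), a nuclear RNA described in neurons and in heart tissue, was the exception in direction. It had 0.354, 0.174 and 0.797 CPM in the combination, 0.296, 6.29 and 0.221 CPM with regorafenib, 0.212, 2.61 and 3.99 CPM with anti-PD1, and 3.65, 2.51 and 2.55 CPM with vehicle. All combination libraries lay below all vehicle libraries, but regorafenib replicate 2 held the highest value of the 12 and anti-PD1 replicate 1 was as low as the combination. The highest library exceeded the lowest 28.4-fold within the regorafenib group and 18.8-fold within the anti-PD1 group. The log2 fold change against vehicle was -2.70 ± 1.27 for the combination, -0.36 ± 1.13 for regorafenib and -0.34 ± 1.12 for anti-PD1. Without regorafenib replicate 2 the value for regorafenib was -3.46, and that for the combination against regorafenib was 0.75, against -2.33 ± 1.27 with it.

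Fibroblast genes moved with Miat library by library. The mean log2 difference of 10 fibroblast genes from the vehicle mean was -1.66, -1.74 and -0.83 in the combination, -0.88, -0.07 and -1.72 with regorafenib, -1.48, 0.02 and 0.12 with anti-PD1, and 0.08, -0.20 and 0.12 with vehicle. The outlying libraries were the same: regorafenib replicate 2 was high and anti-PD1 replicate 1 was low for both. In these outlying libraries the direction was not particular to fibroblast genes. On the same scale 4 Y-linked genes of the male hosts had -0.78, -0.51 and 0.22 in the combination and 0.06, 0.47 and -0.73 with regorafenib. They had -0.58, -0.05 and 0.54 with anti-PD1, and 0.17, -0.17 and 0.005 with vehicle. The Y-linked genes did not follow Miat in every library. In combination replicate 3 and regorafenib replicate 1 they were not below the vehicle range, whereas Miat and the fibroblast genes were. All 10 fibroblast genes were tested and none was at 0, and their summed level was 5029 to 13140 CPM in the combination, 5871 to 30560 with regorafenib, 6665 to 32960 with anti-PD1 and 24700 to 32980 with vehicle. Skeletal muscle genes did not follow this order, their sum being 125 to 436, 16.9 to 401, 128 to 220 and 179 to 357 CPM in the same order of groups. The part of fibroblasts, or of host cells in general, in the level of Miat was not tested.

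**Figure D2:**
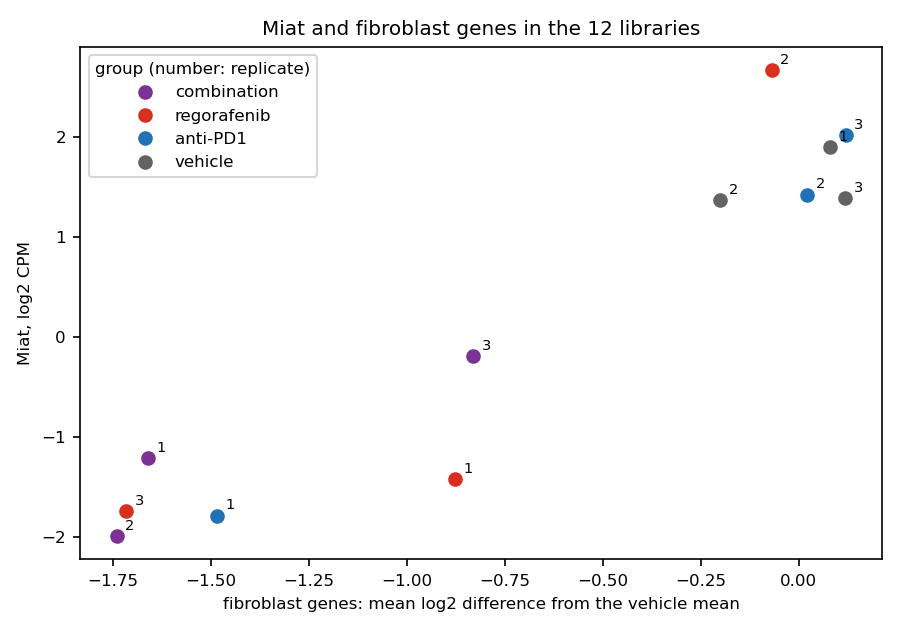
Miat as log2 CPM (vertical) against the mean log2 difference of 10 fibroblast genes from the vehicle mean (horizontal) in the 12 libraries, coloured by group and numbered by replicate. The libraries form a low set, holding the 3 combination libraries, regorafenib 1 and 3 and anti-PD1 1, and a high set, holding the 3 vehicle libraries, anti-PD1 2 and 3 and regorafenib 2.

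Across the 10 RNAs, the combination libraries did not overlap vehicle for any: 9 RNAs were entirely above and Miat entirely below, where 19.6% of all tested genes were entirely above and 19.6% entirely below. With regorafenib alone, 6 of the 10 were entirely above vehicle, against 10.6% of all genes. With anti-PD1 alone, 0 of the 10 were entirely above (7.93% of all genes) and 0 entirely below (9.08%). Between the combination and anti-PD1 alone, 7 were entirely above, against 13.0% of all genes, and between the combination and regorafenib alone 0 were, against 4.94%. In the edgeR quasi-likelihood fit, 5 of the 10 passed an adjusted p of 0.05 upwards in combination against vehicle (Malat1, Neat1, Kcnq1ot1, Pvt1 and Dleu2), where 5.03% of all genes did. In the average regorafenib effect, the mean of the drug's difference from vehicle and of its difference on top of anti-PD1, those 5 and Mir17hg passed upwards, against 6.16% of all genes. The RNAs were chosen on this contrast, so nothing is read from either count. The number passing in combination against vehicle fell to 0 when combination replicate 1, combination replicate 2 or any vehicle replicate was left out, and to 3 without anti-PD1 replicate 3. In the average effect it fell to 3 without vehicle replicate 1 or vehicle replicate 3.

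Between the combination and regorafenib alone, the differences of the host genes were within about their errors. The log2 fold change of combination against regorafenib was 0.23 ± 0.27 for Mir17hg, 0.18 ± 0.16 for Pvt1 and 0.15 ± 0.12 for Dleu2. It was 0.52 ± 0.27 for Malat1, 0.49 ± 0.25 for Neat1, 0.22 ± 0.09 for Tug1 and 0.11 ± 0.25 for Kcnq1ot1. The low-count RNAs had 1.20 ± 0.57 for Lncpint and 1.03 ± 0.48 for Fendrr. The interaction of the drugs, the amount by which the combination exceeds the sum of the single log2 differences, was positive for 8 of the 10 RNAs and negative for Kcnq1ot1 and Miat. Lncpint had the highest value at 1.46 ± 0.84 and Kcnq1ot1 had -0.34 ± 0.35. No gene of 16974 passed the interaction test (edgeR, adjusted p; 449 at an unadjusted p under 0.05).

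**Figure D3:**
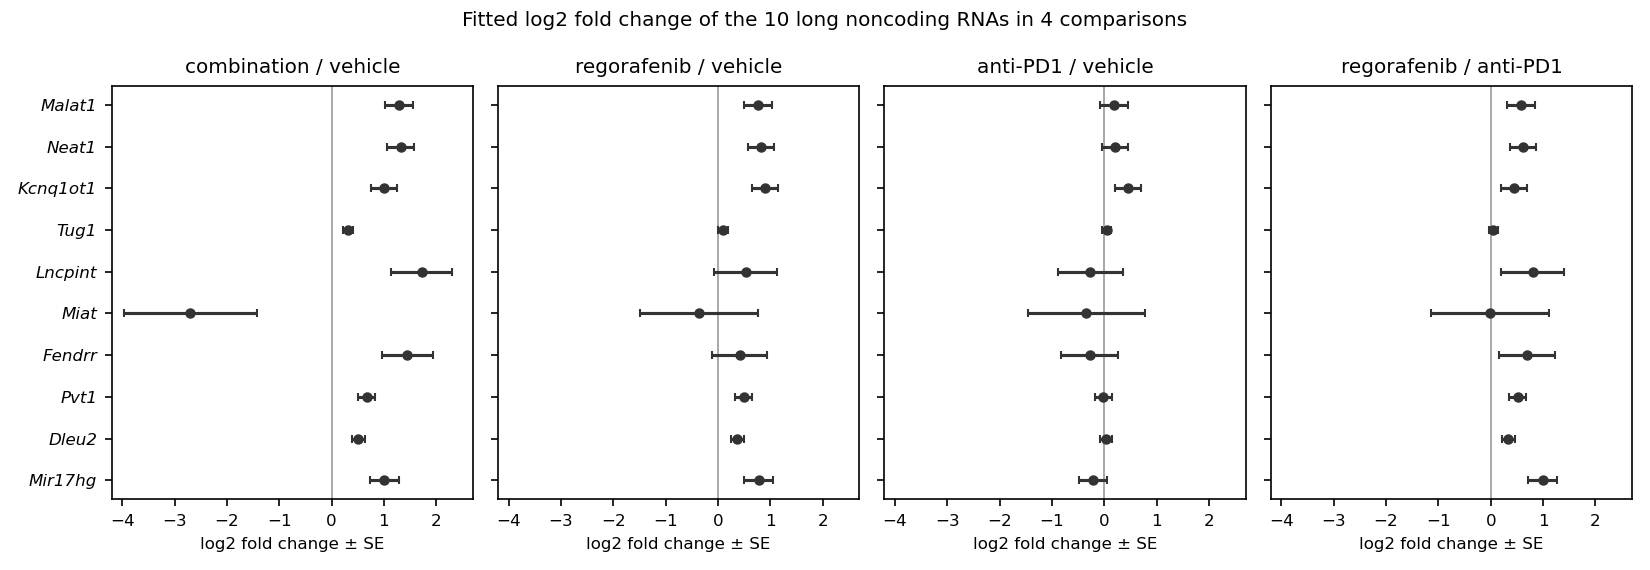
Fitted log2 fold change (horizontal axis, dot) with its standard error (whisker) of each RNA in 4 comparisons, 3 libraries a side; positive values are higher in the group named first. Against vehicle, 9 of the 10 RNAs lie right of 0 in the combination and in regorafenib, while anti-PD1 values lie close to 0 with 5 on the positive side.

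In the regorafenib against anti-PD1 comparison, none of the 10 RNAs passed the edgeR test at an adjusted p of 0.05, and neither did any other gene (0.0% of 16974; 1875 genes at an unadjusted p under 0.05; DESeq2 called 265). The estimate was positive for 9 of the 10, with a median log2 fold change of 0.55. Of all genes 48.6% were positive, with a median of -0.01. The 10 RNAs were chosen with earlier results of these data known, so nothing is read from this difference. Mir17hg had the smallest p: it was higher with regorafenib by 1.00 ± 0.28 (95% interval 0.39 to 1.61) on the log2 scale, with all 3 regorafenib libraries above all 3 anti-PD1 libraries, but its adjusted p was 0.245. DESeq2 gave an adjusted p of 0.0427 for Mir17hg, and over all alternative settings it ran from 0.0427 to 0.749, the highest value without anti-PD1 replicate 2. Pvt1 had 0.52 ± 0.16 (interval 0.16 to 0.87) and an adjusted p of 0.303 in edgeR. Dleu2 had 0.34 ± 0.12 (interval 0.06 to 0.61) and an adjusted p of 0.369 in edgeR. These were the 3 RNAs whose regorafenib libraries lay entirely above anti-PD1, an arrangement found in 7.15% of all genes.

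For the nuclear RNAs the same comparison gave 0.62 ± 0.25 (interval 0.06 to 1.18) for Neat1 and 0.58 ± 0.27 (interval -0.01 to 1.18) for Malat1. Their edgeR adjusted p was 0.412 for Neat1 and 0.460 for Malat1, and their groups overlapped. Kcnq1ot1 had 0.44 ± 0.25 with an edgeR adjusted p of 0.536. The interval for Tug1, from -0.15 to 0.25 around 0.05, was the narrowest. For Lncpint it ran from -0.55 to 2.15, for Fendrr from -0.49 to 1.88 and for Miat from -2.52 to 2.48, so the libraries resolve neither direction for these RNAs.

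Within treatment groups, libraries high in one RNA were compared with libraries high in another, using deviations of log2 CPM from the group mean and an exact permutation test that shuffles replicates within groups (1296 arrangements, smallest possible p 0.000772). Of 45 pairs, 33 had a positive Pearson correlation, 9 had an unadjusted p under 0.05, and 0 passed after Benjamini-Hochberg adjustment. Malat1 and Neat1, neighbours on chromosome 19, had the highest correlation: r = 0.90 with a permutation p of 0.00463 and rho = 0.85 with a permutation p of 0.0139 (adjusted 0.104 and 0.208, n = 12). The value was 0.87 without the 2 libraries farthest from the median. Mir17hg and Miat ran opposite to each other with r = -0.75 and rho = -0.80 (permutation p 0.0170 and 0.0123, adjusted 0.152 and 0.208), and r was -0.80 without the 2 farthest libraries.

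The genes whose pattern over the 12 libraries was most like each RNA were found by the root mean square distance between centred log2 CPM profiles, among 12809 named genes of at least 1 mean CPM. Atrx, a chromatin remodeller, was nearest to Tug1 at a distance of 0.0508, where Tug1 itself varied with a root mean square of 0.146. Ccnl1, a cyclin that localises to nuclear speckles, was nearest to Pvt1 at 0.104. Ttll3 was nearest to Malat1 at 0.111 and Spock2 to Neat1 at 0.134, with Ttll3 second. Dalrd3 was nearest to Dleu2 at 0.0808, Ccdc171 to Kcnq1ot1 at 0.196 and Doc2g to Mir17hg at 0.206, with the microRNA host Mir670hg in the third place for Mir17hg at 0.233. Rspo1, Pamr1 and Aspn were nearest to Miat at 0.401, 0.510 and 0.515, and Aspn encodes a matrix protein of connective tissue. For Lncpint and Fendrr the nearest genes stood at 0.438 (Fam71f2) and 0.332 (Qrfp), against root mean squares of 0.938 and 0.725 of the RNAs themselves.

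Protein genes of nuclear speckles, the bodies where Malat1 resides, were examined in the average regorafenib effect. There 12 of 20 passed the edgeR test upwards, against 6.16% of all genes, and 0 downwards. The median log2 fold change was 0.25, while the median of all genes was 0.003. This list and the gene lists below were chosen with earlier results of these data known. Their counts are therefore a description, and no enrichment is read from them. Srsf11, a splicing factor of the SR family, rose by 0.44 ± 0.06 (edgeR adjusted p 0.00453). Srrm2, the scaffold protein of speckles, rose by 0.55 ± 0.07 (edgeR adjusted p 0.00496), and Clk4, a kinase that releases SR proteins from speckles, by 0.67 ± 0.10 (edgeR adjusted p 0.00532). Sf1, the branch point binding protein, rose by 0.33 ± 0.05 (edgeR adjusted p 0.00733). The number passing stayed between 8 and 13 when any single library was left out, and was 7 with the replicate number as a block. In regorafenib against vehicle only 1 of all 16974 genes passed, and 0 of these 20, with 18 of 20 positive. In combination against vehicle 8 of 20 passed upwards, against 5.03% of all genes. That count was 0 without combination replicate 1, combination replicate 2 or any vehicle replicate. In combination against anti-PD1 9 of 20 passed upwards, against 1.7% of all genes. In regorafenib against anti-PD1 0 did, with 19 of 20 positive and a median of 0.27. The anti-PD1 level itself was slightly lower than vehicle for most of these genes: 4 of 20 were positive, with a median of -0.08, and 0 passed.

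Proteins of paraspeckles, the bodies built on Neat1, were counted in the same way. In the average regorafenib effect 7 of 20 passed upwards, against 6.16% of all genes, and 0 downwards, with a median log2 fold change of 0.13. With the replicate number as a block 1 passed upwards. Hnrnph3 rose by 0.47 ± 0.10 (edgeR adjusted p 0.0183), Rbmx by 0.39 ± 0.09 (edgeR adjusted p 0.0254), Tardbp by 0.30 ± 0.07 (edgeR adjusted p 0.0285) and Cpsf7 by 0.22 ± 0.05 (edgeR adjusted p 0.0289). Hnrnph3, Rbmx and Tardbp encode RNA-binding proteins and Cpsf7 a cleavage factor. The core proteins that hold the body together were not among those passing: Sfpq had 0.12 ± 0.07, Nono -0.03 ± 0.06 and Pspc1 0.02 ± 0.07, named here after their values were seen. The count was 0 without combination replicate 2, anti-PD1 replicate 2, vehicle replicate 1 or vehicle replicate 2, 1 without anti-PD1 replicate 3, and 2 without combination replicate 1 or vehicle replicate 3. In combination against vehicle 3 of 20 passed upwards, where 5.03% of all genes did. That count was 0 without combination replicate 1, combination replicate 2 or any vehicle replicate. There it was 1 without regorafenib replicate 2, anti-PD1 replicate 2 or anti-PD1 replicate 3, and 5 without combination replicate 3 or regorafenib replicate 1.

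**Figure D4:**
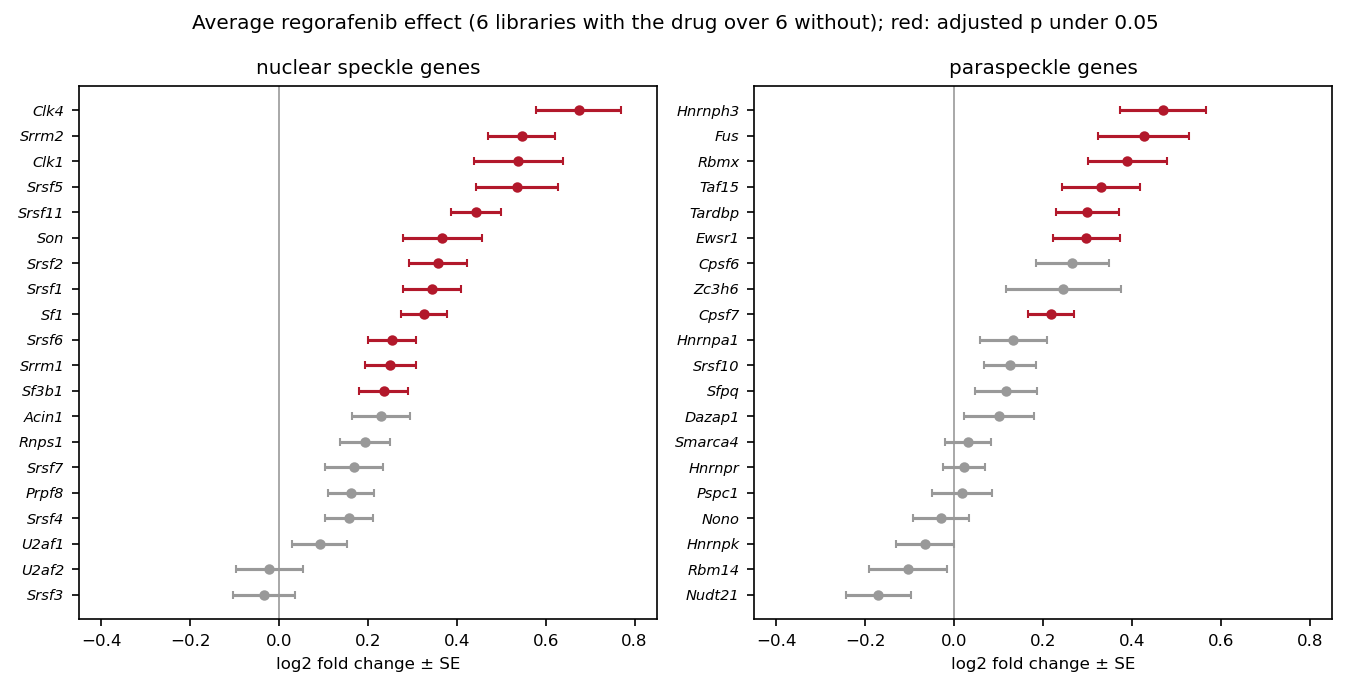
Log2 fold change (dot) and standard error (whisker) in the average regorafenib effect for 20 nuclear speckle and 20 paraspeckle protein genes, ordered by value; red marks an edgeR adjusted p under 0.05. On the left 12 genes are red and 18 lie right of 0, and on the right 7 are red and 16 lie right of 0.

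A list set up for nuclear long noncoding RNAs outside the 10 had 15 tested genes, called other nuclear lncRNAs below. Where these RNAs reside, Norad, Gas5 and H19 among them, was not checked, so not all need be nuclear. In the average regorafenib effect 2 of the 15 passed upwards, where 6.16% of all genes did, and 0 downwards. They were Firre by 0.64 ± 0.12 (edgeR adjusted p 0.0136) and Airn by 0.66 ± 0.16 (edgeR adjusted p 0.0306). Firre organises chromatin contacts around its X-linked locus, and Airn silences the imprinted Igf2r region. In combination against vehicle 4 of the 15 passed upwards, against 5.03% of all genes, with Jpx at 0.79 ± 0.20 and Ftx at 0.51 ± 0.14 (edgeR adjusted p 0.0403 and 0.0476), both X-inactivation centre RNAs, beside Firre and Airn. In that comparison 9 of the 15 were positive, and the lowest estimates were those of Mirg at -2.97 ± 1.02, Rian at -2.37 ± 0.67 and Meg3 at -1.85 ± 0.62 (edgeR adjusted p 0.0936, 0.0554 and 0.0892), neighbours in 1 imprinted domain, named after their values were seen. The 2 calls of the average effect became 1 when any of 8 libraries was left out (combination replicates 1 and 2, regorafenib replicate 3, anti-PD1 replicates 2 and 3, and each vehicle replicate), and they became 4 without regorafenib replicate 1. The 4 calls of combination against vehicle became 0 without combination replicate 1, combination replicate 2 or any vehicle replicate, 1 without regorafenib replicate 2 or anti-PD1 replicate 3, and 2 without anti-PD1 replicate 1 or 2. Xist, which coats the inactive X of female cells, averaged 971 ± 403 CPM in the combination, 639 ± 138 with regorafenib, 731 ± 105 with anti-PD1 and 550 ± 120 with vehicle (SD, n = 3 each). Its average regorafenib effect was 0.31 ± 0.20 (edgeR adjusted p 0.341), and the 4 Y-linked genes of the male hosts summed to 18.3 to 34.6, 18.1 to 41.7, 21.3 to 42.3 and 25.6 to 33.6 CPM in the same order of groups.

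A list set up for hosts of other microRNAs had 12 tested genes. It includes Mirt1, for which a hosted microRNA was not checked, and its genes are called other hosts below. In the average regorafenib effect 4 of the 12 passed upwards, against 6.16% of all genes, and 1 downwards, against 3.32%. The median log2 fold change was 0.54. Mir100hg, host of miR-100, let-7a-2 and miR-125b-1, averaged 179 ± 50.6 CPM in the combination, 109 ± 2.10 with regorafenib, 47.6 ± 12.8 with anti-PD1 and 54.5 ± 11.2 with vehicle (SD, n = 3 each). Its average regorafenib effect was 1.46 ± 0.17 (edgeR adjusted p 0.00308). Mest, an imprinted protein-coding gene that hosts miR-335, averaged 1.86 ± 0.25 CPM in the combination, 2.43 ± 0.54 with regorafenib, 9.19 ± 3.09 with anti-PD1 and 13.4 ± 0.86 with vehicle. It fell by 2.38 ± 0.18 on the log2 scale (edgeR adjusted p 0.000909). Mir142hg, the host of a microRNA of blood cells, rose by 0.91 ± 0.21 (edgeR adjusted p 0.0256) and Mir99ahg by 0.70 ± 0.17 (edgeR adjusted p 0.0328). The remaining host, Mir670hg, rose by 0.82 ± 0.22 (edgeR adjusted p 0.0452). The 4 upward calls became 1 without combination replicate 2, anti-PD1 replicate 2, vehicle replicate 1 or vehicle replicate 2, and 2 without vehicle replicate 3. In combination against vehicle Mir100hg passed upwards and Mest downwards, where 5.03% of all genes passed upwards and 2.32% downwards. The upward call was lost without combination replicate 1, combination replicate 2 or any vehicle replicate, and a further gene of the list was called without regorafenib replicate 1 or 3.

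Genes that process, regulate or respond to such RNAs were counted in the average regorafenib effect, in which 6.16% of all genes passed upwards. Of 19 tested genes of microRNA processing and silencing, 2 passed upwards in the average regorafenib effect, Dgcr8, the partner of Drosha, by 0.21 ± 0.06 (edgeR adjusted p 0.0405) and the helicase Ddx17 by 0.21 ± 0.06 (edgeR adjusted p 0.0482). Drosha had -0.06 ± 0.05 and Dicer1 0.15 ± 0.07. Of 10 tested Myc, Max-network and E2F genes, families that hold known regulators of Mir17hg, 0 passed in either direction (edgeR). The smallest p among them was that of E2f5 at 0.34 ± 0.10 (edgeR adjusted p 0.0580), and Myc had 0.22 ± 0.10 (edgeR adjusted p 0.193). Among 20 p53 targets 1 passed upwards, Mdm2 by 0.36 ± 0.09 (edgeR adjusted p 0.0394), while Cdkn1a had 0.09 ± 0.10. Among 20 polycomb genes 1 passed upwards, Pcgf6 by 0.32 ± 0.06 (edgeR adjusted p 0.0134), while Ezh2 had -0.06 ± 0.12.

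Genes beside the 10 RNAs were examined next, since several of these RNAs act on their own neighbourhood. Within 100 kb lay 32 protein-coding genes, of which 24 were tested, with a median log2 fold change of 0.06 in the average regorafenib effect. There 2 passed upwards, against 6.16% of all genes, and 2 downwards, against 3.32%. Nothing is read from these small counts. Myc, 47612 bases from Pvt1, had the value given above. Foxf1, which is transcribed away from Fendrr 1276 bases off, had 0.64 ± 0.29 (edgeR adjusted p 0.181), and Mthfsd, 8518 bases from Fendrr, rose by 0.38 ± 0.07 (edgeR adjusted p 0.0146). Frmd8, 4224 bases from Neat1, fell by 0.19 ± 0.04 (edgeR adjusted p 0.0196), opposite in sign to Neat1, and Ehbp1l1, 69373 bases from Malat1, rose by 0.44 ± 0.11 (edgeR adjusted p 0.0287). Osbp2, 54058 bases from Tug1, fell by 1.55 ± 0.40 (edgeR adjusted p 0.0372), and Morc2a, which overlaps Tug1, had 0.18 ± 0.07 (edgeR adjusted p 0.144). Trim13, which overlaps the span of Dleu2 on the opposite strand, had -0.30 ± 0.12 (edgeR adjusted p 0.130), while Tfip11 near Miat had -0.04 ± 0.06 and Mkln1, beyond the window around Lncpint, 0.07 ± 0.07. Gpc5 beside Mir17hg and Crybb1 beside Miat were close to 0 CPM and not tested.

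Of 13 tested genes in and around the domain that Kcnq1ot1 silences in mouse, 1 passed upwards in the average regorafenib effect, where 6.16% of all genes did. It was Cars, by 0.39 ± 0.07 (edgeR adjusted p 0.0134), and the list is regional, so a gene on it need not be a target of the silencing. Cdkn1c, a cell cycle inhibitor, had -0.63 ± 0.23 (edgeR adjusted p 0.104), and Phlda2, a brake on placental growth, 0.64 ± 0.24 (edgeR adjusted p 0.106). Kcnq1 itself had 0.50 ± 0.34 (edgeR adjusted p 0.367). Both Cdkn1c and Phlda2 are targets of this silencing, and their estimates had opposite signs, neither past the threshold.

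Promoters were read from RefSeq (GRCm38.p6) as 250 bases before to 50 after each start, and 8 of the 10 RNAs had an entry, Neat1 and Pvt1 being the others. A set of 8 motifs was searched on both strands: CACGTG (the E-box bound by Myc and Max), TGACGTCA (the cAMP response element), GCCATNTTG (YY1), TTTCGCGC and TTTGGCGC (E2F), GGGCGG (the GC box of Sp1), the NRF1 motif and the core of the interferon response element. The E-box occurred in 2 of the 8 promoters, those of Dleu2 and Lncpint, and in 7.15% of 32851 promoters of the same length. These 2 promoters are printed 5′ to 3′ on the gene's strand, with the E-box in capitals, because they are the ones that hold it. Dleu2 is among the RNAs separated by regorafenib and Lncpint is not. Of the others so separated, Pvt1 had no entry and the window of Mir17hg could not be used. A link of the motif to the levels was not tested.
Dleu2 promoter, chr14:61682324-61682623, minus strand: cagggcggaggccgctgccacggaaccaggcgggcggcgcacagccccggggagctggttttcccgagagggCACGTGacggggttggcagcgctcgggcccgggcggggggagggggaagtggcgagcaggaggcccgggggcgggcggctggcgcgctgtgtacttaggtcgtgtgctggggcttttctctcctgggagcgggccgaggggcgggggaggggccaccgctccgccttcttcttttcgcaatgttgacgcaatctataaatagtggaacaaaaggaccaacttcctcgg
Lncpint promoter, chr6:31218425-31218724, minus strand: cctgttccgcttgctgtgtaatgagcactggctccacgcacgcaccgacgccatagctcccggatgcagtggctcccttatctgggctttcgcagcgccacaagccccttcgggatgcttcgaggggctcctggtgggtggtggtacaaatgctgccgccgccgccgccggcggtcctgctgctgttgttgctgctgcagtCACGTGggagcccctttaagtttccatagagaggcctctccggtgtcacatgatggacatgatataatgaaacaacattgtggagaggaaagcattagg
The E-box began 178 bases before the start of Dleu2 and 49 bases before that of Lncpint. The Dleu2 window also held 6 GC boxes, 2 of them overlapping each other, and GC content was 69.0% there, against 58.7% for Lncpint. Tug1 held the YY1 motif 164 bases before its start, found in 2.51% of promoters, and the GC box, found in 35.7%, was in Tug1, Dleu2 and Miat. For Malat1, Kcnq1ot1 and Fendrr, these letters were not in the window. The RefSeq start lies 2014 bases inside the GENCODE gene for Lncpint, 859 for Tug1 and 447 for Miat, so these windows do not reach the GENCODE 5′ end. Their motifs are those of the RefSeq start only. For Mir17hg the RefSeq start lies 1511 bases inside, among the microRNA hairpins, so that window is not at the 5′ end of the host gene and nothing is read from it.

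Shares of all counts were compared for the annotated classes of the 10 RNAs and for TEC, a class that holds none of them. Annotated lincRNA genes other than the 10 held 0.338% to 0.434% of all counts in the combination, 0.308% to 0.335% with regorafenib, 0.291% to 0.324% with anti-PD1 and 0.258% to 0.296% with vehicle. Antisense genes, Tug1 and Kcnq1ot1 included, held 0.107% to 0.127%, 0.0957% to 0.106%, 0.0887% to 0.104% and 0.0861% to 0.0929% in the same order of groups. Processed transcripts, Dleu2 and Fendrr included, held 0.270% to 0.316%, 0.255% to 0.275%, 0.217% to 0.238% and 0.218% to 0.225%. Genes of the class TEC, transcripts that GENCODE holds back pending experiments, held 0.0641% to 0.0884%, 0.0518% to 0.0609%, 0.0385% to 0.0538% and 0.0399% to 0.0421%. Every combination library lay above every vehicle library in all 4 classes, and above every regorafenib library in all but the processed transcripts, where these groups overlapped. The 10 RNAs themselves took 0.139% to 0.212%, 0.0960% to 0.154%, 0.0635% to 0.103% and 0.0729% to 0.0796%. Mitochondrial genes did not show this order, with 1.31% to 1.85% in the combination, 1.43% to 1.5% with regorafenib, 1.16% to 1.27% with anti-PD1 and 1.29% to 1.44% with vehicle. A nuclear share of RNA in the libraries was not measured, and its part in the levels of the 10 RNAs was not tested.

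**Figure D5:**
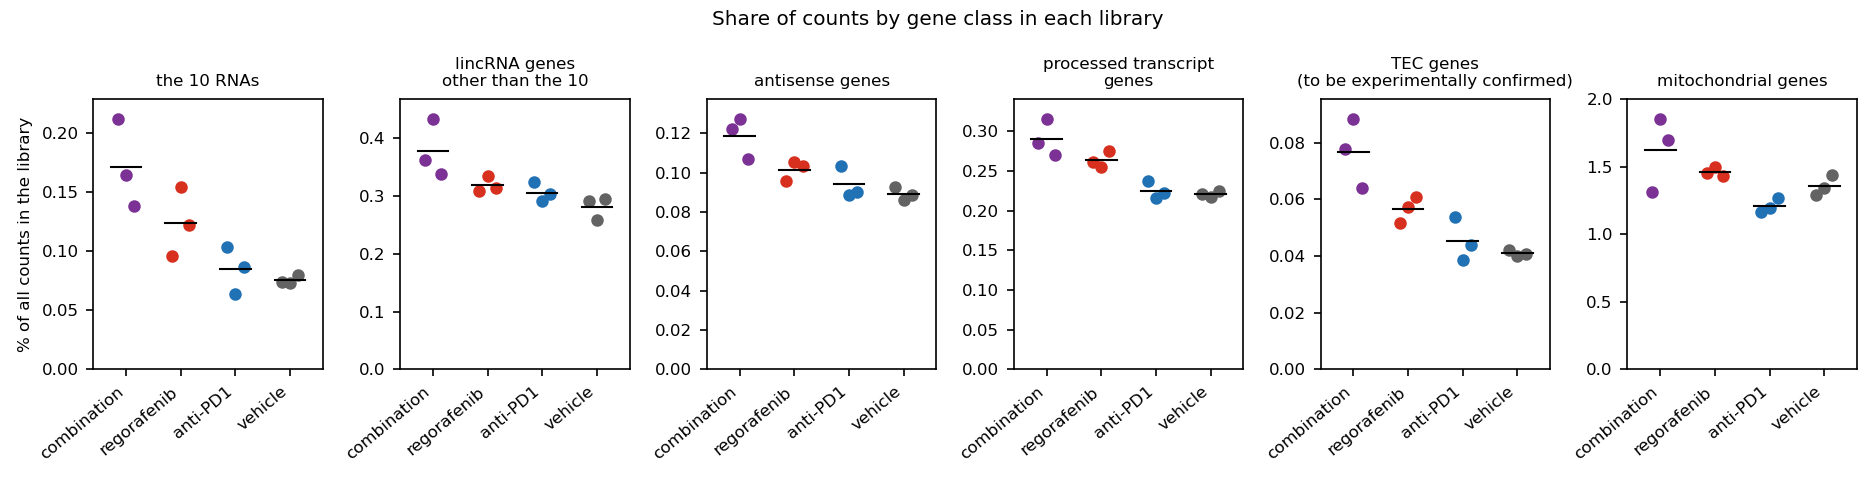
Share of all counts (% of the library, vertical axes from 0) taken by the 10 RNAs, other lincRNA genes, antisense genes, processed transcripts, TEC genes and mitochondrial genes in each of the 12 libraries; dots are libraries and bars group means. The noncoding classes are highest in the combination and lowest in vehicle by mean, and mitochondrial genes are lowest with anti-PD1.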

How the data were processed

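Raw read counts per Ensembl gene in 12 libraries were deposited by the authors as one table of 55487 identifiers and 12 columns, all used. Polyadenylated RNA was extracted with a column kit and made into stranded libraries, per the labels' protocols. Per the submitters' processing notes, cutadapt 2.4, STAR 2.7.2a and GRCm38 were used; the counting tool, its strand setting and its annotation are not given in the sources used here. GENCODE M21 gave symbols and coordinates, and 54435 identifiers equal that release with their version.

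The filterByExpr function (count of at least 10, total of at least 15) kept 16974 genes with 99.9% of the counts. They were tested in edgeR 4.0.16 (R 4.3.3) by robust quasi-likelihood tests, two-sided, in 1 fit of 4 group means with TMM factors and 8 residual degrees of freedom, adjusted by Benjamini-Hochberg over all 16974 genes at a threshold of 0.05. Log2 CPM used a prior count of 2. On simulated counts for regorafenib against anti-PD1 (16974 genes), 10%, 66%, 76% and 88% of genes changed 1.5-, 2-, 3- and 5-fold were recovered. Named in the text are the 10 RNAs, of each list up to 4 genes with the smallest p in the average regorafenib effect, set neighbours and the nearest profiles; further names are called genes, or were added after their values were seen (Jpx, Ftx, Xist, Mirg, Rian, Meg3, Mir670hg, Drosha, Dicer1, Cdkn1a and Ezh2 with the core paraspeckle genes). The 10 RNAs and all lists were chosen with earlier results of these data known. Alternatives were other size factors (RLE), no count filter, a prior count of 0.5, the replicate number as a block, a Y-linked covariate, DESeq2 1.42.0, and each library left out; the counts of list genes under these settings were added after seeing the data. The values of 1 set neighbour are not reported here.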

Additional observations from a re-analysis of the deposited data

How the results depend on the processing

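Genes are counted at an adjusted p under 0.05, and the cause of each change was not tested. With RLE size factors and a prior count of 0.5 no count left 1.5 times its value. Without the count filter, 1 gene passed in regorafenib against anti-PD1, 663 genes and 2 of the 10 RNAs in combination against vehicle (1 paraspeckle gene and 1 other nuclear lncRNA upwards), 6 genes in regorafenib against vehicle, 1 of the 10 RNAs in combination against anti-PD1, and 959 genes in the average regorafenib effect (4 paraspeckle genes and 2 other hosts upwards). With DESeq2, 265 genes and 1 of the 10 RNAs (Mir17hg, 1.00) passed in regorafenib against anti-PD1, 2542 genes and 8 RNAs in combination against vehicle (5 paraspeckle genes and 4 other hosts), 390 and 1 in regorafenib against vehicle, 1160 and 6 in combination against anti-PD1, 2 genes in anti-PD1 against vehicle, 4 in combination against regorafenib, and 2749 in the average effect (5 other nuclear lncRNAs). With the mean level of Y-linked host genes as a covariate the counts were 82 for regorafenib against anti-PD1, 2303 for combination against vehicle (5 paraspeckle genes, 2 other hosts), 295 for regorafenib against vehicle, 795 for combination against anti-PD1 with 3 of the 10 RNAs, and 3342 for the average effect (5 other nuclear lncRNAs).

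With the replicate number as a block, 11 genes passed in combination against vehicle and 0 of the 10 RNAs, speckle genes, paraspeckle genes, other nuclear lncRNAs and other hosts. The block left 0 genes in regorafenib against vehicle and in combination against anti-PD1, and 504 in the average effect (7 speckle genes, 1 paraspeckle gene, 1 other nuclear lncRNA and 1 other host upwards). The numbers share nothing stated in the labels: same-numbered libraries correlated between -0.66 and 0.63, 2 of 18 pairs were over 0.1, and 0 libraries correlated best with their own number.

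With each library left out in turn, the genes called ran from 1 to 1517 in combination against vehicle (0 to 7 of the 10 RNAs, 0 to 9 speckle genes, 0 to 5 paraspeckle genes, 0 to 4 other nuclear lncRNAs, 0 to 2 other hosts). They ran from 0 to 4 in regorafenib against vehicle, 0 to 432 in combination against anti-PD1 (0 to 3 RNAs), and 460 to 2048 in the average effect (3 to 8 RNAs, 8 to 13 speckle genes, 0 to 7 paraspeckle genes, 1 to 4 other nuclear lncRNAs and 1 to 4 other hosts), and were 0 throughout in the other 4 comparisons. In regorafenib against anti-PD1, Miat turned positive without regorafenib replicate 1 (0.50), regorafenib replicate 3 (0.53), anti-PD1 replicate 2 (0.085) or anti-PD1 replicate 3 (0.67), and Lncpint turned to -0.021 without regorafenib replicate 3. With libraries left out Miat ran from -3.10 to 0.67 and Lncpint from -0.021 to 1.20; the other 8 RNAs kept their sign in all 17 alternatives. Depth limits Lncpint, Fendrr and Miat, whose counts start at 3 to 5 per library.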
